A study of Mus musculus with 14 samples.

Results

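Cells labelled as adult-born granule cells that carried a DREADD were compared, after pilocarpine seizures, with cells so labelled that carried GFP alone. Both groups are labelled as having had seizures and received pilocarpine at the same dose, but the strength of the seizures was not compared here. Marker genes, given below, did not bear out the granule cell label in every library. The comparison took the libraries titled DREADD Pilo + CNO and those titled CAG-GFP Pilo + CNO, 7 of the 14 libraries in the series, and was read across the 18676 genes, of 43346 in the count table, that passed the filter on low counts. Polyadenylated RNA came from live GFP-positive cells sorted from the hippocampus of wild-type C57BL/6 mice at day 14, about 800 to 1000 cells for each sample. SMART-Seq v4, which makes full-length cDNA from very small inputs, was used for amplification.

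The DREADD Pilo group held 3 libraries, DREADD Pilo 1 to 3, of cells labelled as seizures and silenced, with library names that give hM4Di and GFP. The CAG-GFP Pilo group held 4 libraries, CAG-GFP Pilo 1 to 4, of cells labelled as seizures, with GFP under the CAG promoter. Mice of both groups received scopolamine methyl nitrate and terbutaline, then pilocarpine at 300 mg/kg, then diazepam to end status epilepticus, and both groups received CNO. The other 7 libraries, 4 of DREADD Sham and 3 of CAG-GFP Sham, also with CNO, entered the fit and are given beside some genes as levels. The groups differed in the vector as well as in silencing, so the vector and silencing cannot be told apart in this contrast. The promoter of the DREADD vector, the schedule of CNO, the age of the mice and the event from which day 14 was counted were not given in the sources used here. The labels do not say whether each library came from its own animals, so p-values measure the spread between these samples, which may be technical.

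Granule cells of the dentate gyrus are among the few neurons that the adult brain goes on making, and status epilepticus in rodents is known to change how many are born and where they settle. hM4Di is a muscarinic receptor of the Gi class, engineered so that CNO in place of acetylcholine activates it. Gi-coupled receptors lower cyclic AMP and, through G protein βγ subunits, open GIRK potassium channels and reduce transmitter release, so the receptor is used to silence neurons. Timp3, an inhibitor of metalloproteinases held in the extracellular matrix, and Rrm2, a subunit of the ribonucleotide reductase that makes the building blocks of DNA, are the genes in the series title.

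Total counts ran from 12562178 to 18368478 in DREADD Pilo and from 10613291 to 38614639 in CAG-GFP Pilo, and 17432 to 18844 genes had a count in DREADD Pilo, against 9372 to 20863 in CAG-GFP Pilo. Several libraries stood apart. DREADD Pilo 3 had 25.8% of its counts in mitochondrial genes, against 2.58% and 4.50% in DREADD Pilo 1 and 2, and Ttr, the transthyretin of choroid plexus, took 10.7% of its counts. CAG-GFP Pilo 3 and 4 had library names of another form (PC) than the other 5 pilocarpine libraries, and 0.185% and 0.170% of their counts in pseudogenes, against 4.33% to 7.82% in those 5. All CAG-GFP Sham libraries and DREADD Sham 1 and 2 had names of the same form (SC in place of PC) and 0.117% to 0.200% of their counts in pseudogenes. DREADD Sham 3 and 4 had names of the other form and 8.12% each. The labels do not say what the name form stands for. For most named genes, a value within the other form (DREADD Pilo 1 to 3 against CAG-GFP Pilo 1 and 2), without DREADD Pilo 2 or without DREADD Pilo 3 is given beside the log2 fold change where it moves the fold by more than 1.5 times. Correlations of log2 CPM (counts scaled to a common library size) ran from 0.659 to 0.855 between DREADD Pilo libraries and from 0.568 to 0.818 between CAG-GFP Pilo libraries, a description over the 18676 genes.

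The granule cell label was checked first. Prox1, the transcription factor that defines granule cells, had 53, 80.8 and 0 CPM in DREADD Pilo 1 to 3, against 221, 238, 32.2 and 0 CPM in CAG-GFP Pilo 1 to 4. Dcx, a microtubule protein of immature neurons, had 30.3, 92.2 and 0 CPM in DREADD Pilo 1 to 3, against 48.8, 57.4, 20.7 and 0 CPM in CAG-GFP Pilo 1 to 4. Both genes had 0 counts in DREADD Pilo 3 and in CAG-GFP Pilo 4, so the defining markers of the labelled cell type were absent from 1 library of each group. Values without both libraries are given for Timp3, Rrm2 and some gene lists. Chrm4, the mouse gene of the muscarinic receptor type from which hM4Di was made, had 3 counts in DREADD Pilo 2 and 0 in the other 13 libraries, and was not tested. The DREADD transcript itself was not analysed here, so no expression value checks the DREADD label.

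No gene passed the test in edgeR. By its quasi-likelihood test with Benjamini-Hochberg adjustment, 0 of 18676 genes were called higher and 0 lower in DREADD Pilo (0% in each direction), with a smallest adjusted p of 0.882. At an unadjusted p under 0.05 there were 420 genes higher in DREADD Pilo, 2.25% of those tested, and 581 lower, 3.11%. All DREADD Pilo libraries lay above all CAG-GFP Pilo libraries for 1062 genes, or 5.69%, and below them for 589, or 3.15%. limma voom also called 0 genes. DESeq2 called 70 genes higher (0.375%) and 102 lower (0.546%), and of these 172 calls 90 had 0 counts in every library of 1 group and 71 did not overlap between the groups. The biological coefficient of variation was 1.47, so that genes commonly varied between libraries of a group by more than their mean. The median log2 fold change of all genes was 0.28, with 10902 genes above 0 and 7767 below. This median was 0.09 with library totals and 1.13 with limma voom, and a fold change below is read against it.

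**Figure D1:**
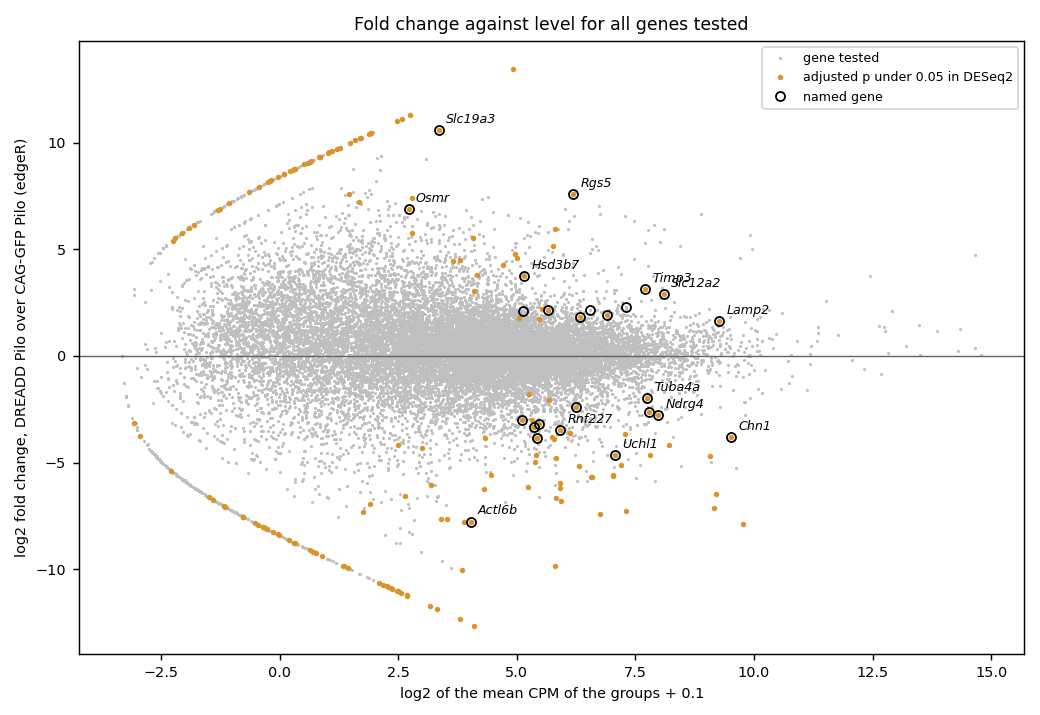
Log2 fold change of DREADD Pilo over CAG-GFP Pilo from edgeR (y axis) against log2 of the mean CPM of the groups plus 0.1 (x axis) for the 18676 genes tested. Orange points are the 172 genes past the threshold in DESeq2 and rings mark genes described in the text; the curved edges are genes with 0 counts in 1 group.

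Timp3 stood higher in 2 of the 3 DREADD Pilo libraries than in any CAG-GFP Pilo library. It had 63.5, 406 and 656 CPM in DREADD Pilo 1 to 3, against 74, 28.8, 21.1 and 45.8 CPM in CAG-GFP Pilo 1 to 4, with means of 375 ± 297 and 42.4 ± 23.4 CPM (SD, n = 3 and 4). DREADD Pilo 1 lay within the range of CAG-GFP Pilo, so the groups overlapped. The log2 fold change was 3.14 ± 0.79 (SE) with an adjusted p of 0.882 in edgeR, and DESeq2 gave the lowest adjusted p of all settings, 0.0196, against a highest of 1. It was 2.87 ± 1.14 within 1 form of library name, 2.46 ± 0.80 without DREADD Pilo 3 and 2.50 ± 0.88 without DREADD Pilo 3 and CAG-GFP Pilo 4. Without DREADD Pilo 3 the rise rested on DREADD Pilo 2 alone, at 406 CPM. Sham cells had 51, 56.1, 270.0 and 86 CPM in DREADD Sham and 179, 173 and 177 CPM in CAG-GFP Sham, so that every CAG-GFP Pilo library lay below every CAG-GFP Sham library.

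Timp3 lies on the plus strand at chr10:86300372-86349506 (GRCm38), within the span of Syn3, a synapsin gene on the opposite strand, and shares 1733 of its exon bases (21.3%) with Syn3 exons in GENCODE M21. Syn3 had 41.3, 193 and 504 CPM in DREADD Pilo 1 to 3, against 32.6, 20.1, 16.7 and 45.8 CPM in CAG-GFP Pilo 1 to 4, a log2 fold change of 3.09 ± 0.86, and 2.00 ± 0.84 without DREADD Pilo 3. DREADD Pilo 3 and 2 were again the highest libraries. Whether counting used strand was not stated, so reads of the shared exon bases cannot be assigned to 1 of these 2 genes. The promoter of Timp3 is shown because Timp3 is the gene in the series title that stood higher. It covers 250 bases before to 50 after the transcript start, from RefSeq at chr10:86300162-86300461 on the plus strand of GRCm38.p6, with matches to the GC box GGGCGG, the core of Sp1-family binding sites, on either strand in capitals.
Timp3 promoter: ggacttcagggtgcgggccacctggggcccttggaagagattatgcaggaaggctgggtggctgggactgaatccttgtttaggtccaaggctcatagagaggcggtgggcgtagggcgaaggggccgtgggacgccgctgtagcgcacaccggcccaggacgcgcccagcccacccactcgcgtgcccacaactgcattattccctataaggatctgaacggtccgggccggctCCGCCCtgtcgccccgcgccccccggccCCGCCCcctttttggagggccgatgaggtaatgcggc
It held 2 GC boxes and no cyclic AMP response element (CRE, TGACGTCA, the same on both strands); of 32851 mouse promoters of this length 35.7% held a GC box and 1.79% a CRE, and no match shown overlaps another.

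Rrm2 did not separate the groups. It had 76.6, 0 and 0.892 CPM in DREADD Pilo 1 to 3, against 22.4, 15.9, 17.3 and 99.8 CPM in CAG-GFP Pilo 1 to 4. DREADD Pilo 2 and 3 held the lowest values and CAG-GFP Pilo 4 the highest, with DREADD Pilo 1 next. The log2 fold change of -0.59 ± 1.71 was smaller than its error and turned to 0.44 ± 2.40 within 1 form of library name and to 1.04 ± 1.84 without DREADD Pilo 3 and CAG-GFP Pilo 4.

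Among protein-coding genes whose libraries did not overlap, the 12 higher and the 12 lower ones with the smallest unadjusted p are described next; none passed edgeR, and DESeq2 called 21 of these 24. Their log2 fold changes kept direction in all 19 alternative settings, but the choice of genes that did not overlap favours this. For each of them the adjusted p was lowest in DESeq2 and reached 1 in some other setting.

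Slc12a2, which encodes NKCC1, the transporter that loads neurons with chloride, had 140.5, 393 and 919.9 CPM in DREADD Pilo 1 to 3, against 63.2, 111, 31.5 and 56 CPM in CAG-GFP Pilo 1 to 4. All DREADD Pilo libraries lay above all CAG-GFP Pilo libraries, with a log2 fold change of 2.89 ± 0.69. It was 2.48 ± 0.97 within 1 name form and 2.02 ± 0.67 without DREADD Pilo 3, the library with the highest value. In sham cells it had 109, 98.7, 251 and 113 CPM in DREADD Sham and 8.56, 16.2 and 26.4 CPM in CAG-GFP Sham.

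Rock1, a kinase that acts downstream of RhoA on actin and cell migration, had 52.6, 92.6 and 103 CPM in DREADD Pilo 1 to 3, against 13.1, 16.1, 33.5 and 12.2 CPM in CAG-GFP Pilo 1 to 4 (log2 fold change 2.14 ± 0.54). Efcab14, which encodes an EF-hand protein, had 156, 253 and 164 CPM in DREADD Pilo 1 to 3, against 46.9, 33.3, 54.3 and 65.8 CPM in CAG-GFP Pilo 1 to 4, and its log2 fold change of 1.93 ± 0.46 had one of the smallest errors of the 24 genes. The highest CAG-GFP Pilo library lay well under the lowest DREADD Pilo library for Efcab14, and the gap was narrower for Rock1. Rad21, a subunit of the cohesin ring that holds sister chromatids and chromatin loops, had 84, 146 and 146 CPM in DREADD Pilo 1 to 3, against 52.9, 28, 31.8 and 30.9 CPM in CAG-GFP Pilo 1 to 4 (1.81 ± 0.52).

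Dusp1, an immediate early gene whose product removes phosphate from MAP kinases, had 100.2, 156 and 531 CPM in DREADD Pilo 1 to 3, against 67.2, 52.2, 36.4 and 55.5 CPM in CAG-GFP Pilo 1 to 4. Its log2 fold change of 2.31 ± 0.67 was 2.14 ± 0.90 within 1 name form and 1.26 ± 0.64 without DREADD Pilo 3, whose value stood above the other 2 libraries of its group. The Dusp1 promoter is shown because it carries the element through which cyclic AMP and CREB act on many immediate early genes. It is at chr17:26508423-26508722 on the minus strand (GRCm38.p6, RefSeq), with the CRE and the GC boxes in capitals.
Dusp1 promoter: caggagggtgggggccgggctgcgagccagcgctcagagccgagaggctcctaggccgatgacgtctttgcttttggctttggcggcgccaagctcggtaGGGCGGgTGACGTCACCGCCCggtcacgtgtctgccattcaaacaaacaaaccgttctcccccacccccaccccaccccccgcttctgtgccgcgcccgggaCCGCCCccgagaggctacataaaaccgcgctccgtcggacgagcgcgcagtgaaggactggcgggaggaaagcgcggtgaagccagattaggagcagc
The window held 1 CRE and 3 GC boxes. Such a match describes the letters and says nothing of what binds there.

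Lysosomal and metabolic genes were also among the 12. Lamp2, a membrane protein of lysosomes, had 633, 746 and 1409.8 CPM in DREADD Pilo 1 to 3, against 372, 322, 214 and 305 CPM in CAG-GFP Pilo 1 to 4 (1.62 ± 0.45). Naaa, a lysosomal hydrolase of fatty acid amides, had 33.1, 22.4 and 114 CPM in DREADD Pilo 1 to 3, against 13.8, 16.9, 16.1 and 4.92 CPM in CAG-GFP Pilo 1 to 4 (2.13 ± 0.64, and 1.08 ± 0.60 without DREADD Pilo 3). Pon2, an intracellular paraoxonase, had 52.5, 106 and 299 CPM in DREADD Pilo 1 to 3, against 51.3, 46.4, 24.6 and 13.3 CPM in CAG-GFP Pilo 1 to 4 (2.17 ± 0.63, and 1.21 ± 0.58 without DREADD Pilo 3), and its lowest DREADD Pilo library lay just above the highest CAG-GFP Pilo library. Neither Naaa, Pon2 nor Dusp1 was called by DESeq2, with adjusted p of 0.0634, 0.0671 and 0.0779. Hsd3b7, an enzyme that converts oxidised cholesterol toward bile acids, had 72.8, 60.6 and 64.6 CPM in DREADD Pilo 1 to 3, against 0.188, 3.87, 15.1 and 0.673 CPM in CAG-GFP Pilo 1 to 4 (3.73 ± 1.08, and 5.02 ± 1.35 within 1 name form), the tightest of these genes among DREADD Pilo libraries. It shares 62.4% of its exon bases with 9430064I24Rik on the opposite strand and 62% with Gm49388 on its own strand. Reads of the shared bases cannot be assigned to it alone.

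Genes near the detection limit in CAG-GFP Pilo completed this set. Slc19a3, a thiamine transporter, had 4.23, 47.9 and 9.03 CPM in DREADD Pilo 1 to 3, against 0, 0, 0.0247 and 0 CPM in CAG-GFP Pilo 1 to 4, or 963 counts in DREADD Pilo and 1 count in CAG-GFP Pilo. The ratio of mean CPM was 3306, with a 95% counting interval of 593 to 130576 that covers counting error only. Osmr, the receptor subunit for oncostatin M, had 2.78, 27 and 8.81 CPM in DREADD Pilo 1 to 3, against 0.0941, 0, 0.296 and 0 CPM in CAG-GFP Pilo 1 to 4 (6.89 ± 1.99, 7.85 ± 2.16 within 1 name form, and 5.73 ± 2.02 without DREADD Pilo 2). Rgs5, which speeds the shut-off of G proteins and is a defining marker of pericytes, had 2.24, 409.9 and 22.2 CPM in DREADD Pilo 1 to 3, against 0.282, 2.03, 0.74 and 0 CPM in CAG-GFP Pilo 1 to 4 (7.60 ± 2.07, 6.96 ± 2.62 within 1 name form, and 4.04 ± 1.70 without DREADD Pilo 2), with by far its highest value in DREADD Pilo 2. In the same library the summed pericyte and endothelial markers, given below, were also the highest of the 7; their part in these values was not tested.

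**Figure D2:**
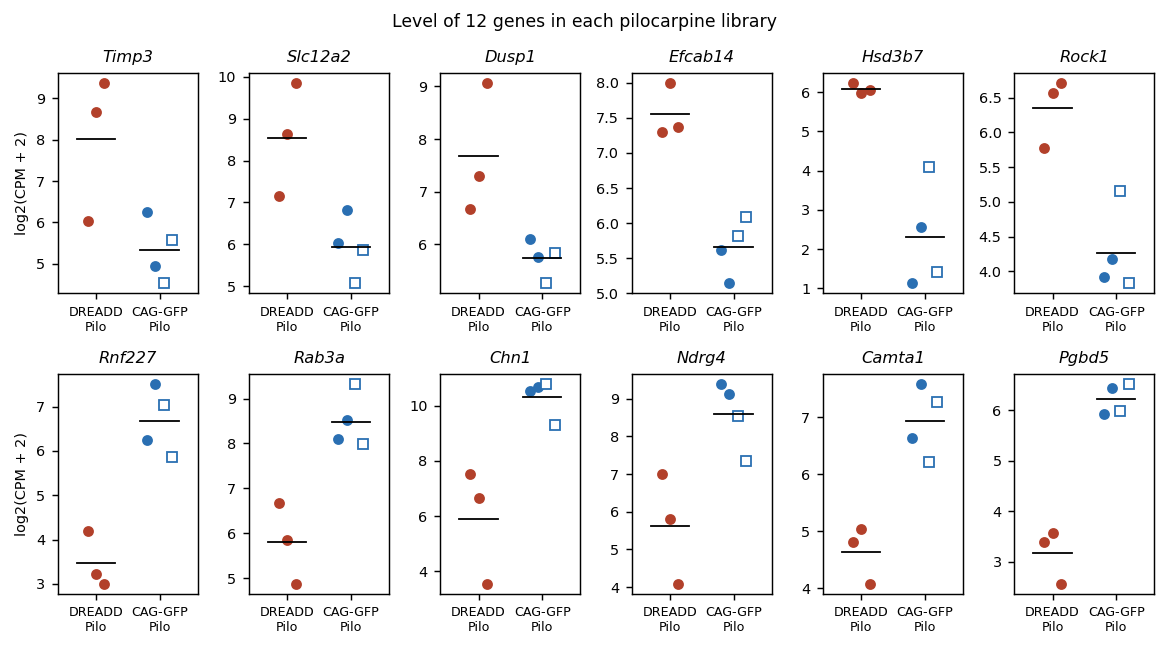
Level of 12 genes in each library as log2(CPM + 2) (y axis) for DREADD Pilo (left, red) and CAG-GFP Pilo (right; circles are libraries 1 and 2, open squares libraries 3 and 4 of the PC name form); bars are means. The upper row shows genes that stood higher and the lower row genes that stood lower in DREADD Pilo, and the groups overlap only for Timp3.

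Several of the 12 genes that stood lower in DREADD Pilo act in neurons. Rab3a, the GTPase that docks synaptic vesicles for release, had 101, 55.7 and 27.4 CPM in DREADD Pilo 1 to 3, against 274, 364, 643 and 251 CPM in CAG-GFP Pilo 1 to 4. All DREADD Pilo libraries lay below all CAG-GFP Pilo libraries, and the log2 fold change was -2.64 ± 0.72 (DESeq2 adjusted p 0.0145, against a highest of 1 over all settings). It was -2.38 ± 0.68 within 1 name form. Its first promoter in RefSeq, at chr8:70754453-70754752 on the plus strand (GRCm38.p6), is shown as that of the synaptic gene with the smallest p; capitals mark 2 GC boxes, and no CRE was found.
Rab3a promoter: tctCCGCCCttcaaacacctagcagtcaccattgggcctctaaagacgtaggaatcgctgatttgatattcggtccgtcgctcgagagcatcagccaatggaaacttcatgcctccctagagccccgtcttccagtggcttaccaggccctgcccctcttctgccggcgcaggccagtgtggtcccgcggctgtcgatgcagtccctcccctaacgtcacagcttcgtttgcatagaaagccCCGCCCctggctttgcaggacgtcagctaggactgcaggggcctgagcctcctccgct
The second RefSeq promoter of Rab3a held neither motif.

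Chn1 encodes chimaerin 1, which turns off Rac downstream of axon guidance receptors. It had 184, 97.9 and 9.70 CPM in DREADD Pilo 1 to 3, against 1475, 1623, 1781 and 622 CPM in CAG-GFP Pilo 1 to 4, a log2 fold change of -3.82 ± 1.11, and -3.99 ± 1.18 within 1 name form. The antisense genes Chn1os1 and Chn1os3 share 8.37% and 3.46% of its exon bases. Ndrg4, a cytoplasmic protein abundant in brain, had 125, 53.8 and 15 CPM in DREADD Pilo 1 to 3, against 676, 556, 369 and 159.5 CPM in CAG-GFP Pilo 1 to 4 (-2.76 ± 0.73). In both genes DREADD Pilo 3 was the lowest of the 7 libraries and DREADD Pilo 1 the highest of its group.

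Camta1, a calmodulin-binding transcription activator, had 26, 30.9 and 14.9 CPM in DREADD Pilo 1 to 3, against 97.2, 191, 72.1 and 152 CPM in CAG-GFP Pilo 1 to 4 (-2.42 ± 0.59). Pgbd5, a brain-expressed gene derived from a piggyBac transposase, had 8.40, 9.92 and 3.90 CPM in DREADD Pilo 1 to 3, against 59.2, 85.4, 61.4 and 90.7 CPM in CAG-GFP Pilo 1 to 4 (-3.32 ± 0.80). Rnf227, which encodes a RING finger protein, had 16.3, 7.28 and 6.02 CPM in DREADD Pilo 1 to 3, against 73.7, 182, 129.8 and 56 CPM in CAG-GFP Pilo 1 to 4 (-3.48 ± 0.73) and the smallest unadjusted p of these 12. For these 3 genes the difference was close to the pooled value within 1 name form, at -2.58 ± 0.61, -3.28 ± 0.69 and -3.69 ± 0.75.

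For a further group the PC name form held the highest values. Uchl1, a neuronal ubiquitin hydrolase, had 16.1, 14.1 and 1.11 CPM in DREADD Pilo 1 to 3, against 57.5, 57.8, 709 and 213 CPM in CAG-GFP Pilo 1 to 4, and its log2 fold change of -4.63 ± 1.29 came to -2.46 ± 1.08 within 1 name form. Actl6b, the BAF53B subunit of the chromatin remodelling complex of neurons, had 0.0497, 0.361 and 0 CPM in DREADD Pilo 1 to 3, against 5.93, 3.13, 76.2 and 44 CPM in CAG-GFP Pilo 1 to 4 (-7.77 ± 2.09, -4.91 ± 1.97 within 1 name form, and -9.85 ± 2.75 without DREADD Pilo 2). Ica1, a protein of secretory vesicles, had 7.21, 7.10 and 2.45 CPM in DREADD Pilo 1 to 3, against 14.7, 38, 123 and 148 CPM in CAG-GFP Pilo 1 to 4 (-3.85 ± 1.01, and -2.23 ± 0.96 within 1 name form). In each of these genes both libraries of the PC form lay above CAG-GFP Pilo 1 and 2, which still lay above every DREADD Pilo library. Sult4a1, a brain sulfotransferase family member, had 2.34 to 18.5 CPM in DREADD Pilo, against 41.2 to 129.7 CPM in CAG-GFP Pilo (-3.18 ± 0.92, and -2.33 ± 0.999 within 1 name form). Gdap1l1, a relative of the mitochondrial fission gene Gdap1, had 3.01 to 10.6 CPM in DREADD Pilo, against 25.2 to 127 CPM in CAG-GFP Pilo (-3.02 ± 0.80, and -1.91 ± 0.88 within 1 name form). Tuba4a, an alpha tubulin, had 41.9 to 133 CPM in DREADD Pilo, against 265 to 526 CPM in CAG-GFP Pilo (-1.97 ± 0.54), and shares 37.3% of its exon bases with Stk16 on the opposite strand, while Uchl1 shares 18.1% with Uchl1os.

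The members of 29 gene lists are described by counts and medians beside the same over all genes tested, with no test of a list. In bulk samples fewer cells of a type and less RNA per cell cannot be told apart. Of the 25 mature granule cell genes 24 had a log2 fold change below 0, with a median of -2.41 against 0.28 for all genes. Not all members are particular to granule cells, as Syt1 and Snap25 also stand on the synaptic vesicle list. Prox1, the defining member, was at -1.46 ± 1.79 and overlapped between the groups. No member passed edgeR (0% of all genes did); 9 were lower at an unadjusted p under 0.05, where 3.11% of all genes were, and 10 lay below without overlap, where 3.15% of all genes did. The 9 were 3 without DREADD Pilo 2, 4 without DREADD Pilo 3 and 7 within 1 name form. Summed CPM of the list was 1349.8, 857 and 369 in DREADD Pilo 1 to 3, against 3521, 3479.7, 7347 and 2605 in CAG-GFP Pilo 1 to 4, so every DREADD Pilo library lay below every CAG-GFP Pilo library. The sham libraries had 2745, 3401, 1199 and 1187 in DREADD Sham and 1198, 1564 and 1103 in CAG-GFP Sham. DREADD Pilo 2 and 3 lay below all CAG-GFP Sham sums and DREADD Pilo 1 among them, while all CAG-GFP Pilo sums lay above them. The CAG-GFP Sham libraries, all of the PC or SC name form, had astrocyte sums of 32054, 32107 and 33519 CPM. Those of the 7 pilocarpine libraries ran from 884 to 6972 CPM. Prox1 had 12.7, 5.63 and 14.6 CPM in CAG-GFP Sham 1 to 3, so their sums are no plain granule cell baseline. Within DREADD Sham the 2 higher sums were of the PC or SC form and the 2 lower of the other form. Within 1 name form 23 of 25 members stayed below 0 with a median of -2.17, and without DREADD Pilo 3 and CAG-GFP Pilo 4 it was 24 of 25 with a median of -2.38.

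Within this list Ppp3ca, the catalytic subunit of calcineurin, had 164, 123 and 66 CPM in DREADD Pilo 1 to 3, against 612, 668, 939 and 286 CPM in CAG-GFP Pilo 1 to 4 (-2.41 ± 0.77). Ncdn, neurochondrin, which acts in neurite outgrowth and CaMKII signalling, had 78.6, 72.8 and 5.35 CPM in DREADD Pilo 1 to 3, against 386, 517, 173 and 195 CPM in CAG-GFP Pilo 1 to 4 (-2.60 ± 0.90). Syt1, the calcium sensor of vesicle release, had 75.8, 42.9 and 5.35 CPM in DREADD Pilo 1 to 3, against 176, 246, 840.4 and 263 CPM in CAG-GFP Pilo 1 to 4 (-3.20 ± 1.24, and -2.35 ± 1.01 within 1 name form). Calb1, the calcium buffer that marks mature granule cells, had 24.9, 9.62 and 11.1 CPM in DREADD Pilo 1 to 3, against 217, 173, 767 and 252 CPM in CAG-GFP Pilo 1 to 4 (-4.53 ± 1.79); it was chosen after its values were seen. Each of the 4 genes was lower in all DREADD Pilo libraries than in any CAG-GFP Pilo library. Maml2, a coactivator of Notch and the member above 0, stood at 1.56.

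Synaptic vesicle genes went the same way in number. Of 27 tested, 21 were below 0 and 6 above, with a median of -2.22; 9 were lower at an unadjusted p under 0.05 (3.11% of all genes) and 1 higher (2.25% of all genes). The 9 were 4 without DREADD Pilo 2, 5 without DREADD Pilo 3 and 3 within 1 name form. All DREADD Pilo libraries lay below all CAG-GFP Pilo libraries for 12 members, against 3.15% of all genes. Syt1 and Snap25 also stand on the granule cell list. Summed CPM was 1539, 1533 and 1052 in DREADD Pilo, against 2551, 2644, 7408 and 2831 in CAG-GFP Pilo. The member higher at p under 0.05 was Syn3, which overlaps Timp3. Within 1 name form 19 of 26 were below 0, with a median of -1.57.

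**Figure D3:**
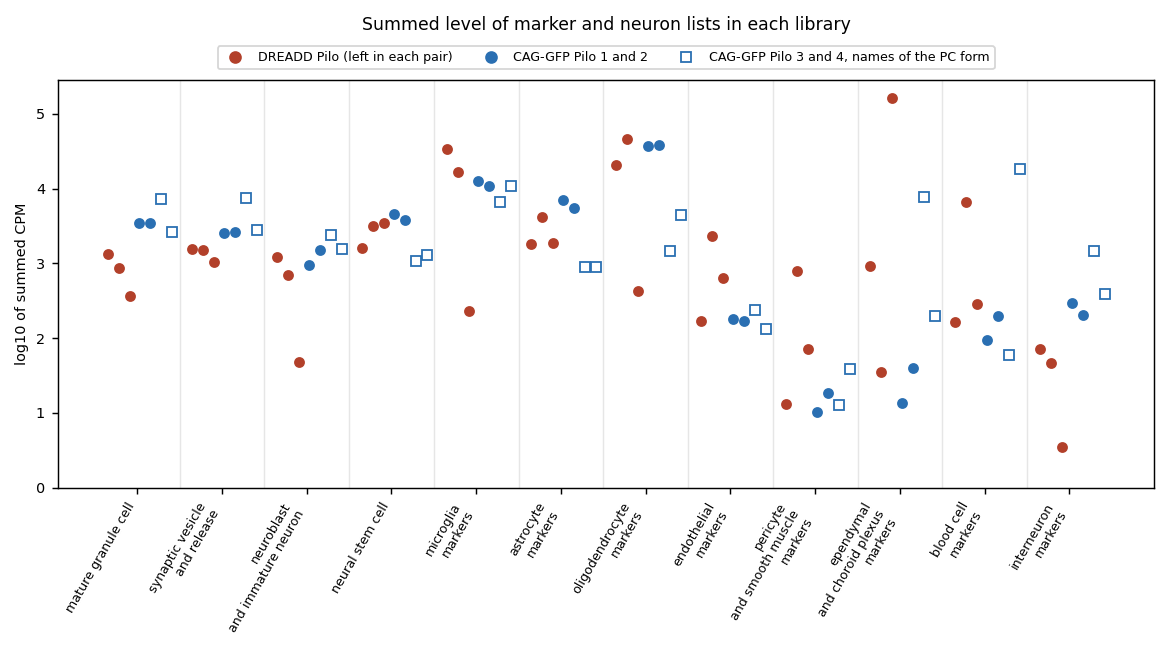
Log10 of the summed CPM of 12 gene lists (y axis) in each library, DREADD Pilo in red at the left of each pair and CAG-GFP Pilo in blue (open squares, the PC name form). The mature granule cell, synaptic vesicle and interneuron sums do not overlap between the groups. Microglia, oligodendrocyte, choroid plexus and blood sums spread over more than 10-fold within a group.

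Immediate early genes and later activity-regulated genes, which neurons switch on in 2 waves after firing, had medians of opposite sign. Of 25 immediate early genes 19 were above 0, with a median of 1.01, and 4 were higher (2.25% of all genes) and 0 lower (3.11% of all genes) at an unadjusted p under 0.05. Without DREADD Pilo 2 the 4 were 2. Summed CPM of the list overlapped, at 2628 to 5526 in DREADD Pilo, against 1093 to 4298 in CAG-GFP Pilo. Atf3, a stress-induced transcription factor, had 810.1, 512 and 209 CPM in DREADD Pilo 1 to 3, against 231, 78.9, 127 and 51.3 CPM in CAG-GFP Pilo 1 to 4 (2.06 ± 0.68). Fosb, an AP-1 subunit, had 44.2, 126 and 13.5 CPM in DREADD Pilo 1 to 3, against 12.9, 23, 6.81 and 7.03 CPM in CAG-GFP Pilo 1 to 4 (2.30 ± 0.81, and 1.21 ± 0.86 without DREADD Pilo 2). In both genes 1 DREADD Pilo library lay inside the CAG-GFP Pilo range. Within 1 name form 15 of 22 were above 0 with a median of 0.82, but 0 were higher and 2 lower at an unadjusted p under 0.05. Fos itself, with 873, 2155 and 458 CPM in DREADD Pilo 1 to 3, against 1245, 604, 188 and 295 CPM in CAG-GFP Pilo 1 to 4, and Arc, with 8.80, 18.8 and 1.23 CPM in DREADD Pilo 1 to 3, against 11.2, 0, 28.3 and 8.66 CPM in CAG-GFP Pilo 1 to 4, overlapped between the groups; both were chosen after their values were seen.

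Of 24 late activity-regulated genes 21 were below 0, with a median of -1.74; 2 were lower at an unadjusted p under 0.05 (3.11% of all genes) and 6 lay below CAG-GFP Pilo in every DREADD Pilo library (3.15% of all genes). Nrn1, a neuritin that promotes neurite growth, had 77.7, 60.3 and 64.4 CPM in DREADD Pilo 1 to 3, against 190.4, 229.8, 392 and 248 CPM in CAG-GFP Pilo 1 to 4 (-1.98 ± 0.78). Nefm, the medium neurofilament, had 23.8, 5.11 and 1.56 CPM in DREADD Pilo 1 to 3, against 114, 211, 101 and 65.7 CPM in CAG-GFP Pilo 1 to 4 (-3.59 ± 1.73). Sst, somatostatin, was at 0 in all DREADD Pilo libraries, against 0.0941, 4.61, 0.469 and 15.6 CPM in CAG-GFP Pilo, and also stands on the interneuron list. Bdnf, the neurotrophin induced by activity, had 40.4, 3.31 and 0 CPM in DREADD Pilo 1 to 3, against 77.2, 87.3, 212 and 66.2 CPM in CAG-GFP Pilo 1 to 4, with its highest DREADD Pilo value below the lowest CAG-GFP Pilo value; it was chosen after its values were seen. Within 1 name form 19 of 23 were below 0, with a median of -1.07. Summed CPM of the list overlapped, at 618 to 1621 in DREADD Pilo, against 1570 to 3076 in CAG-GFP Pilo.

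The pathway through which hM4Di acts was read from 26 tested genes of Gi signalling and GIRK channels. Of these 17 were below 0 and 9 above, with a median of -0.78; 1 was lower at an unadjusted p under 0.05, near the 3.11% of all genes. In every DREADD Pilo library 4 lay below CAG-GFP Pilo (3.15% of all genes) and 1 above (5.69% of all genes). Summed CPM of the list overlapped, at 646 to 1667 in DREADD Pilo, against 1423 to 2037 in CAG-GFP Pilo. Gnb5, the β subunit that works with RGS proteins, had 6.37, 4.75 and 7.25 CPM in DREADD Pilo 1 to 3, against 9.13, 7.74, 108 and 65.1 CPM in CAG-GFP Pilo 1 to 4 (-2.96 ± 1.05, and -0.46 ± 1.03 within 1 name form). Gng3, a neuronal γ subunit, had 107, 73.3 and 6.80 CPM in DREADD Pilo 1 to 3, against 125, 145, 235 and 213 CPM in CAG-GFP Pilo 1 to 4 (-1.52 ± 0.73). Adcy1, the calcium-stimulated adenylyl cyclase that Gi inhibits, had 20.5, 11.8 and 0 CPM in DREADD Pilo 1 to 3, against 210.3, 297, 77.9 and 23.7 CPM in CAG-GFP Pilo 1 to 4 (-3.81 ± 1.94, and -4.54 ± 1.74 within 1 name form). The CAG-GFP Pilo libraries of the PC form held the highest Gnb5 values and the lowest Adcy1 values, while DREADD Pilo lay below all 4 in both genes. Among the GIRK subunits Kcnj3 was below 0 at -2.09, Kcnj6 at -1.99 and Kcnj9 at -1.74, none at an unadjusted p under 0.05.

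Receptor and channel lists also had most members below 0, but their summed CPM overlapped between the groups. GABA receptor and chloride transport genes summed to 634 to 1106 in DREADD Pilo, against 1061 to 2366 in CAG-GFP Pilo. Glutamate receptors summed to 45.1 to 1129, against 980 to 2322. Voltage-gated and HCN channels summed to 191 to 763, against 436 to 1683. Of 19 GABA receptor and chloride transport genes 16 were below 0 (median -1.87). In every DREADD Pilo library 8 lay below CAG-GFP Pilo (3.15% of all genes), and 1, Slc12a2, lay above (5.69% of all genes). Gabra2, the α2 subunit of GABA-A receptors, had 8.45, 23.3 and 1.23 CPM in DREADD Pilo 1 to 3, against 77.6, 147, 143 and 58.9 CPM in CAG-GFP Pilo 1 to 4 (-3.28 ± 1.08, and -4.47 ± 1.32 without DREADD Pilo 2), and Gabrb1, the β1 subunit, had 20.9 to 57 CPM in DREADD Pilo, against 59.7 to 249 CPM in CAG-GFP Pilo (-1.87 ± 0.64, and -2.47 ± 0.77 without DREADD Pilo 2). Slc12a5, which encodes KCC2, the transporter that extrudes chloride from mature neurons, had 7.01, 9.56 and 1.34 CPM in DREADD Pilo 1 to 3, against 21, 27.1, 53.8 and 36.1 CPM in CAG-GFP Pilo 1 to 4, chosen as the partner of Slc12a2 after its values were seen. KCC2 and NKCC1 transcripts thus lay on opposite sides of CAG-GFP Pilo in all 3 DREADD Pilo libraries. Bulk values cannot place both transcripts in the same cells. Slc12a2 was highest in DREADD Pilo 3, where choroid plexus markers were highest, and next in DREADD Pilo 2, where vessel markers were highest. The part of those cells in the Slc12a2 values was not tested. The log2 fold change of Slc12a5 was -2.53 ± 1.49, not at an unadjusted p under 0.05.

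Of 23 glutamate receptor genes 17 were below 0, with a median of -1.65, 2 lower at an unadjusted p under 0.05 (3.11% of all genes) and 6 below CAG-GFP Pilo in every DREADD Pilo library (3.15% of all genes). The 2 were 1 without DREADD Pilo 2 or 3 and 0 within 1 name form. Grm5, the metabotropic receptor mGluR5, had 53.8, 17.4 and 0.557 CPM in DREADD Pilo 1 to 3, against 173, 127, 135 and 133 CPM in CAG-GFP Pilo 1 to 4 (-2.57 ± 1.01). Grin2b, the NMDA receptor subunit that predominates in young neurons, had 33.4, 37.3 and 0.446 CPM in DREADD Pilo 1 to 3, against 114, 181, 344 and 71.1 CPM in CAG-GFP Pilo 1 to 4 (-2.90 ± 1.23). Of 34 voltage-gated and HCN channel genes 24 were below 0, with a median of -1.21 and 3 lower at an unadjusted p under 0.05 (3.11% of all genes), a count of 1 without DREADD Pilo 3. Kcnd2, the A-type potassium channel Kv4.2, had 20.9, 4.69 and 0 CPM in DREADD Pilo 1 to 3, against 249, 98.2, 85.7 and 71.7 CPM in CAG-GFP Pilo 1 to 4 (-3.88 ± 1.37). Scn2b, a sodium channel β subunit, had 2.78, 0.0601 and 0 CPM in DREADD Pilo 1 to 3, against 33, 30.1, 55.6 and 50.6 CPM in CAG-GFP Pilo 1 to 4 (-5.45 ± 2.19). Cacna2d1, the calcium channel subunit bound by gabapentin, had 3.46 to 36.1 CPM in DREADD Pilo, against 20.9 to 254 CPM in CAG-GFP Pilo (-2.76 ± 1.17, and -3.50 ± 1.46 without DREADD Pilo 2). DREADD Pilo 3 was the lowest library for Grm5, Grin2b, Kcnd2 and Scn2b.

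**Figure D4:**
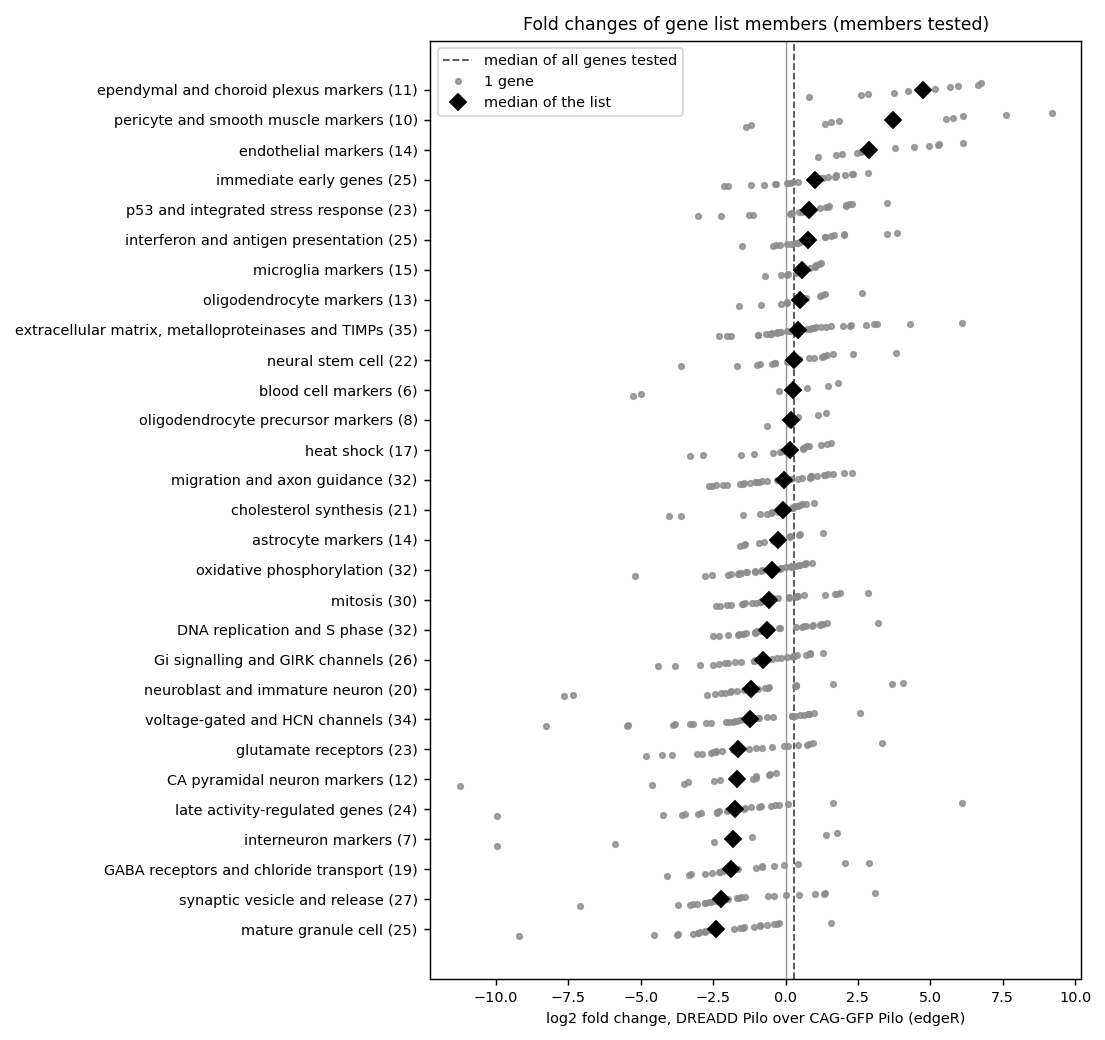
Log2 fold change of DREADD Pilo over CAG-GFP Pilo from edgeR (x axis) for the tested members of 29 gene lists (y axis, number of members in brackets); grey points are genes, diamonds list medians, and the dashed line is the median of all genes, 0.28. Medians run from -2.41 for mature granule cell genes to 4.73 for ependymal and choroid plexus markers.

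Genes of the earlier steps of neurogenesis had medians closer to 0. Of 20 tested neuroblast and immature neuron genes 14 were below 0, with a median of -1.19 and 1 lower at an unadjusted p under 0.05 (3.11% of all genes). That member was Elavl2, an RNA-binding protein of neurons, with 0.298, 0 and 0 CPM in DREADD Pilo 1 to 3, against 0.0941, 83.2, 7.65 and 0 CPM in CAG-GFP Pilo 1 to 4. Its counts lay mostly in CAG-GFP Pilo 2. Without DREADD Pilo 3 and CAG-GFP Pilo 4 the median of these members was -0.38. Stmn1, the microtubule regulator stathmin, had 260.4, 265 and 10.3 CPM in DREADD Pilo 1 to 3, against 262, 287, 1226 and 505 CPM in CAG-GFP Pilo 1 to 4 (-1.67 ± 0.83, and -0.62 ± 1.18 within 1 name form), with DREADD Pilo 3 far below the other libraries. Neurod1, the factor that drives granule cell differentiation, had 28.2, 26.8 and 0 CPM in DREADD Pilo 1 to 3, against 117, 166, 30.2 and 2.66 CPM in CAG-GFP Pilo 1 to 4 and overlapped between the groups; it was chosen after its values were seen.

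Cell cycle lists had 0 members at an unadjusted p under 0.05 in either direction. Of 32 DNA replication genes 21 were below 0, with a median of -0.64, and within 1 name form 15 of 30 were, with a median of -0.03. Of 30 mitosis genes 19 were below 0, with a median of -0.57, and -2.45 without DREADD Pilo 1. Pcna, the sliding clamp of DNA polymerase, had 27.6, 37 and 15.9 CPM in DREADD Pilo 1 to 3, against 15.5, 32, 112 and 65.1 CPM in CAG-GFP Pilo 1 to 4 (-1.06 ± 0.71, and 0.18 ± 0.74 within 1 name form) and stood at 0.18 ± 0.74 within 1 name form. Ccnb2, a mitotic cyclin, had 5.52, 3.25 and 1.56 CPM in DREADD Pilo, against 15.1, 12.9, 5.63 and 39.2 CPM in CAG-GFP Pilo. Of 22 neural stem cell genes 15 were above 0, with a median of 0.30 that was -0.41 within 1 name form and above 0 in 14 of 19 alternative settings.

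Of 35 genes of the extracellular matrix, metalloproteinases and their inhibitors, the class to which Timp3 belongs, 22 were above 0 with a median of 0.45, near that of all genes. Timp3, Adamts1 and Adam10 were higher at an unadjusted p under 0.05 (2.25% of all genes) and 0 were lower. Without DREADD Pilo 2 the 3 higher members were 1. Adamts1, a secreted protease that cleaves proteoglycans, had 18.8, 134 and 167 CPM in DREADD Pilo 1 to 3, against 3.86, 14.7, 2.94 and 40.5 CPM in CAG-GFP Pilo 1 to 4 (2.78 ± 1.09, and 3.52 ± 1.21 within 1 name form). Adam10, the sheddase of Notch and N-cadherin, had 63.9, 149 and 77.9 CPM in DREADD Pilo 1 to 3, against 49.97, 43.4, 41.4 and 29.99 CPM in CAG-GFP Pilo 1 to 4 (1.23 ± 0.53), with no overlap. Adam17, the sheddase of TNF and a target of Timp3, was chosen after its values were seen and had 85.6, 85.7 and 80.4 CPM in DREADD Pilo 1 to 3, against 59.7, 45.6, 16.7 and 4.38 CPM in CAG-GFP Pilo 1 to 4 (1.41 ± 0.78), also without overlap though not at an unadjusted p under 0.05. The other inhibitors were Timp1 at 0.48, Timp2 at 1.07 and Timp4 at -0.48, none at an unadjusted p under 0.05. Of 32 migration and axon guidance genes 16 were above and 16 below 0, with a median of -0.07.

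Markers of other cell types were read in the same libraries. Endothelial markers were above 0 in 14 of 14 members, with a median of 2.88 that was 1.26 without DREADD Pilo 2. Their summed CPM was 168, 2349 and 645 in DREADD Pilo, against 179.7, 172, 239.9 and 131 in CAG-GFP Pilo, so that DREADD Pilo 2 and 3 lay above and DREADD Pilo 1 inside the CAG-GFP Pilo range. Flt1, a VEGF receptor of endothelium, had 19.2, 250.2 and 22.6 CPM in DREADD Pilo 1 to 3, against 0, 1.47, 10.9 and 0 CPM in CAG-GFP Pilo 1 to 4. Pericyte and smooth muscle markers had 8 of 10 members above 0, with a median of 3.69, or 2.16 with genes at 0 in a group set to 3 counts, and 0.80 without DREADD Pilo 2. Their sums were 13, 788 and 72.7 in DREADD Pilo, against 10.4, 18.6, 13 and 39 in CAG-GFP Pilo. DREADD Pilo 2, where vessel markers were highest, also held the highest Rgs5, Slc19a3 and Osmr values. Its Timp3 and Slc12a2 values were the highest after those of DREADD Pilo 3. The part of vessel cells in these values was not tested.

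Ependymal and choroid plexus markers were carried by DREADD Pilo 3. Their sums were 922, 35.7 and 163644 CPM in DREADD Pilo, against 13.5, 39.9, 7762 and 199.7 in CAG-GFP Pilo, and the median log2 fold change of 4.73 turned to -1.59 without that library. Kl, the klotho gene expressed by choroid plexus, had 33.4, 0 and 2787 CPM in DREADD Pilo 1 to 3, against 0, 0, 35.6 and 1.74 CPM in CAG-GFP Pilo 1 to 4. Aqp1, a water channel of the same epithelium, had 0.0497, 0 and 134 CPM in DREADD Pilo 1 to 3, against 0, 0, 1.604 and 0 CPM in CAG-GFP Pilo 1 to 4. DREADD Pilo 3 also held the highest values of Timp3, Slc12a2, Dusp1, Lamp2, Pon2 and Naaa among the 7 libraries, and the part of these cells in those values was not tested.

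Glial sums overlapped between the groups. Microglia markers summed to 34009, 16486 and 230.2 CPM in DREADD Pilo, against 12627, 10819, 6547 and 10928 in CAG-GFP Pilo, with C1qb, a complement subunit, at 10193, 3723 and 67.4 CPM in DREADD Pilo, against 2934, 2800.3, 1267 and 2293 CPM in CAG-GFP Pilo. Oligodendrocyte markers summed to 20444, 45513 and 422 in DREADD Pilo, against 36820.5, 38816, 1452 and 4435 in CAG-GFP Pilo. Astrocyte markers summed to 1800.3, 4129 and 1869 in DREADD Pilo, against 6972, 5554, 884 and 889 in CAG-GFP Pilo. Transcripts of microglia and oligodendrocytes were therefore present in GFP-sorted libraries of both groups at levels that overlapped between the groups. DREADD Pilo 3 held the lowest microglia and oligodendrocyte sums of the 7, with 0 members of either list at an unadjusted p under 0.05 between the groups. Medians were 0.57 for microglia, 0.50 for oligodendrocytes, 0.19 for their precursors and -0.28 for astrocytes. The microglia median was -0.24 without DREADD Pilo 1. The oligodendrocyte median was -0.99, with 11 of 13 members below 0, without DREADD Pilo 2 and -0.30 within 1 name form. The precursor and astrocyte medians kept their sign in 16 and 17 of 19 alternative settings.

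Markers of other neurons also lay mostly below 0. All 12 CA pyramidal markers were below 0, with a median of -1.69, and 5 of 7 interneuron markers were, with a median of -1.83. Within 1 name form 8 of 11 CA markers were below 0, with a median of -0.80, and 3 of 5 interneuron markers, with a median of -0.92. Spink8, a CA1 marker, was at 0 in all DREADD Pilo libraries, against 0, 1.20, 49.7 and 0 CPM in CAG-GFP Pilo. Cck, a peptide of interneurons and other neurons, had 10.5, 13.4 and 0 CPM in DREADD Pilo 1 to 3, against 35.3, 39.7, 1438 and 374 CPM in CAG-GFP Pilo 1 to 4. Summed interneuron markers were 70.7, 47 and 3.46 CPM in DREADD Pilo, against 298, 202, 1479 and 390.0 in CAG-GFP Pilo. Summed CA pyramidal markers were 108, 96.5 and 83.6 CPM in DREADD Pilo, against 162, 227, 513 and 214 in CAG-GFP Pilo. Neither sum overlapped between the groups. Lower granule cell values thus stood beside lower values of markers of other neurons, and their part in the granule cell and synaptic results was not tested. Blood cell markers summed to 165, 6637 and 288 in DREADD Pilo, against 95.1, 195, 59.8 and 18369.7 in CAG-GFP Pilo, with the highest value in CAG-GFP Pilo 4.

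Values of metabolic genes depended on single libraries. Of 32 oxidative phosphorylation genes 21 were below 0 with a median of -0.45. Without DREADD Pilo 3, 31 of 32 were below 0 with a median of -1.81 and 12 lower at an unadjusted p under 0.05, whereas within 1 name form 21 were above 0 with a median of 0.08. Cycs, cytochrome c, had 9.10, 1.32 and 10.6 CPM in DREADD Pilo 1 to 3, against 7.25, 8.29, 822 and 199 CPM in CAG-GFP Pilo 1 to 4 (-5.21 ± 1.96, and -0.14 ± 1.26 within 1 name form). Hspa8, the constitutive Hsc70 chaperone, had 104, 227 and 194 CPM in DREADD Pilo 1 to 3, against 112, 123, 3719 and 2981 CPM in CAG-GFP Pilo 1 to 4 (-3.31 ± 1.41, and 0.58 ± 0.57 within 1 name form). For both genes the 2 CAG-GFP Pilo libraries of the PC form stood far above the other 5 pilocarpine libraries. In sham libraries of the PC or SC form Hspa8 ran from 2206 to 2647 CPM and Cycs from 379 to 1677 CPM. DREADD Sham 3 and 4, of the other form, had 69.1 and 98.7 CPM of Hspa8 and 0.759 and 27.2 CPM of Cycs. These levels thus followed the name form across all groups, and the main fit held no term for it.

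Of 23 genes of the p53 and integrated stress response 19 were above 0, with a median of 0.81. Hspa5, the endoplasmic reticulum chaperone BiP, had 497, 905 and 1502 CPM in DREADD Pilo 1 to 3, against 244, 309, 733 and 406 CPM in CAG-GFP Pilo 1 to 4 (1.19 ± 0.54, and 1.81 ± 0.75 within 1 name form). Bax, which permeabilises mitochondria in cell death, had 22, 23.2 and 14.2 CPM in DREADD Pilo 1 to 3, against 34.5, 43.1, 87.9 and 205 CPM in CAG-GFP Pilo 1 to 4 (-2.23 ± 0.82, and -0.97 ± 0.63 within 1 name form), and Asns, the asparagine synthetase induced by ATF4, had 20.1, 4.21 and 6.91 CPM in DREADD Pilo 1 to 3, against 59.2, 47.4, 144 and 87.6 CPM in CAG-GFP Pilo 1 to 4 (-3.02 ± 1.41, and -2.35 ± 0.86 within 1 name form), both without overlap in the opposite direction to most of the list. Of 25 interferon and antigen presentation genes 21 were above 0, with a median of 0.77 and 0 at an unadjusted p under 0.05. Rsad2, the antiviral protein viperin, had 11.8, 9.38 and 11.7 CPM in DREADD Pilo 1 to 3, against 0, 0, 3.85 and 0 CPM in CAG-GFP Pilo 1 to 4. Of 17 heat shock genes 10 and of 21 cholesterol synthesis genes 10 were above 0, with medians of 0.17 and -0.08; the sign of both depended on the setting.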

How the data were processed

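The raw counts per gene of 14 libraries were used as deposited by the authors; all values are whole numbers. The submitters' processing notes list Bowtie2, Subread, featureCounts, edgeR and R 4.1.1, and the build hg38. All identifiers are mouse Ensembl genes, so that build does not match the table. Strand setting, annotation release and the handling of reads with several matches were not given in the sources used here. Symbols and positions came from GENCODE M21 (GRCm38), which matched 42462 of 43346 identifiers (98%), and promoters from RefSeq (GRCm38.p6).

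Libraries were grouped by title. The test was the quasi-likelihood F-test of edgeR 4.0.16 (R 4.3.3) with filterByExpr, TMM factors, 1 fit of all 14 libraries and Benjamini-Hochberg adjustment at 0.05; 18676 genes passed the filter. DESeq2 1.42.0 and voom of limma 3.58.1 were alternatives, beside other scalings and filters, the library name form, a replicate block and leaving out each library. CPM are counts divided by the library total of tested genes times its TMM factor. Fold changes are DREADD Pilo over CAG-GFP Pilo, with the SE of the fit. Counting intervals cover counting error only, as amplified reads carry no molecular identifiers. The fit was tested on simulated data whose spread between libraries was smaller than that found here, so that test does not show what could be called in these data. All pairs of libraries within a group differed beyond sampling noise.

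Named genes were Rrm2, Timp3 and Chrm4; the 12 higher and 12 lower protein-coding genes without overlap that had the smallest p and, in the higher group, a mean of 5 CPM or more; and up to 3 members per list with the smallest p at that level. Further genes are marked where named, and 1 gene that the rule names is not reported here. The comparison, the gene lists and this rule were chosen with earlier results of these data known.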

Additional observations from a re-analysis of the deposited data

Results flagged for a closer look

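Of 136 gene levels and list sums tested for an outlying CAG-GFP Pilo library, 12 had a library whose gap to the nearest other exceeded Dixon's 95% critical value for 4 samples. Chance flags about 1 in 20 groups, but in 6 of the 12 the other 3 libraries were at 0, where any count meets the criterion and that rate does not apply. Slc19a3 rests on 1 count. CAG-GFP Pilo 3 stood apart for Slc19a3 (0.0247 CPM, the others at 0), Rsad2 (3.85 CPM, the others at 0), Vtn, a plasma and pericyte protein (6.98 CPM, the others at 0), Aqp1 (1.604 CPM, the others at 0), Clic6, a choroid plexus marker (34.4 CPM, the others at 0), and Spink8 (49.7 CPM, the others from 0 to 1.20). It also had the highest summed synaptic vesicle level, 7408 CPM, with the others from 2551 to 2831. CAG-GFP Pilo 4 stood apart for the kainate receptor gene Grik4 (32.2 CPM, the others from 4.14 to 4.42), the haemoglobin gene Hbb-bt (613 CPM, the others from 0 to 3.01) and the summed p53 and stress response list (1326 CPM, the others from 1565 to 1583). CAG-GFP Pilo 1 stood apart for the chaperone gene Hspa1a (208 CPM, the others from 109.5 to 122), and CAG-GFP Pilo 2 for the pericyte channel gene Kcnj8 (1.20 CPM, the others at 0). Groups of 3, DREADD Pilo among them, were not tested.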

How the results depend on the processing

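The count of calls was 0 in both directions in edgeR under every scaling, filter and name-form alternative and in limma voom, and ran from 0 to 0 when each library was left out. DESeq2 called 70 genes higher and 102 lower; 1197 genes had no adjusted p there. Same-numbered libraries correlated at 0.0838, 0.0122 and 0.154 in their deviations, and differently numbered ones from -0.140 to 0.0747. So few pairs cannot decide whether the numbers pair libraries. With the replicate block 0 genes were called and 550 had an unadjusted p under 0.05, against 1001 without it.

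Of 2025 alternative log2 fold changes of 107 named genes, 25 passed the threshold, all in DESeq2, and 31 in 18 genes reversed. Within 1 name form Rrm2 came to 0.44, Pcna 0.18, Prim1 0.53, Hspa8 0.58, Hba-a1 8.06 and Hba-a2 7.82. With the form as a covariate Pcna came to 0.071, Hspa8 0.59, Hba-a1 4.02 and Hba-a2 3.93. The block gave 3.41 for Hba-a1 and 0.057 for Hba-a2. limma voom gave 0.41 for Mobp, -0.88 for Olig2, -0.56 for Gpr17 and 3.65 for Gad1. When 1 library was left out, Rrm2 ran from -6.51 (without DREADD Pilo 1) to 0.48 (without CAG-GFP Pilo 4), Hba-a1 from -10.20 to 3.63 and Hba-a2 from -9.21 to 3.58 (without CAG-GFP Pilo 4). Reversals without DREADD Pilo 1 gave ranges of -0.18 to 1.63 for C1qc, -0.31 to 1.57 for C1qb, -0.022 to 1.94 for P2ry12 and -0.88 to 1.001 for Neu4. Those without DREADD Pilo 2 gave -0.41 to 4.67 for Anln and -2.09 to 8.78 for Hbb-bt, and that without DREADD Pilo 3 gave -3.80 to 12.97 for Aqp1. Leaving out DREADD Pilo 3 and CAG-GFP Pilo 4 together, an alternative chosen after seeing the data, gave 1.04 for Rrm2, 4.13 for Hba-a1, 4.06 for Hba-a2, -4.19 for Aqp1 and -0.38 for Clic6. The cause was not tested. Of 551 list medians under alternatives 37 moved by at least the SD, between libraries of a group, of the list's median log2(CPM + 2).

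A coefficient of variation of 1.47 and 3 against 4 libraries limit what could be called. Depth limits genes near the floor, such as Slc19a3 and Osmr in CAG-GFP Pilo.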

Other observations

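Genes of migration and guidance that are not described above held some of the smaller p of their list. Plxna4, a semaphorin receptor, had 20.8, 4.75 and 0.111 CPM in DREADD Pilo 1 to 3, against 63.4, 86.2, 34.7 and 29.99 CPM in CAG-GFP Pilo 1 to 4 (-2.64 ± 1.16, log2 fold change and SE). Vldlr, one of the receptors for reelin, had 66.9, 94.7 and 161 CPM in DREADD Pilo 1 to 3, against 43.3, 12.4, 86.7 and 27.9 CPM in CAG-GFP Pilo 1 to 4 (1.34 ± 0.67, and 1.95 ± 0.80 within 1 name form). Epha4, an ephrin receptor, had 31.8, 77.6 and 44.9 CPM in DREADD Pilo 1 to 3, against 79.1, 129, 181 and 93.3 CPM in CAG-GFP Pilo 1 to 4 (-1.23 ± 0.63). None passed edgeR.

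Among genes of neural stem cells, Fabp7, a lipid carrier that marks radial glia, had 107, 125 and 41.2 CPM in DREADD Pilo 1 to 3, against 299, 313, 119.5 and 441 CPM in CAG-GFP Pilo 1 to 4 (-1.69 ± 0.54). The Notch target Hes1 had 9.25, 46.2 and 353 CPM in DREADD Pilo 1 to 3, against 24.4, 10.7, 3.18 and 0.486 CPM in CAG-GFP Pilo 1 to 4 (3.82 ± 1.23, 2.96 ± 1.57 within 1 name form, and 1.52 ± 1.23 without DREADD Pilo 3), and its relative Hes5 had 4.18, 7.10 and 1.67 CPM in DREADD Pilo 1 to 3, against 124, 82.2, 2.91 and 3.20 CPM in CAG-GFP Pilo 1 to 4 (-3.61 ± 1.37, and -4.56 ± 0.80 within 1 name form). Of the cholesterol synthesis enzymes, Idi1 had 5.57, 2.47 and 2.45 CPM in DREADD Pilo 1 to 3, against 15.9, 1.57, 52.2 and 100.1 CPM in CAG-GFP Pilo 1 to 4 (-3.60 ± 1.24, and -1.31 ± 1.40 within 1 name form) and Fdps had 2.34, 4.45 and 8.58 CPM in DREADD Pilo 1 to 3, against 48.6, 6.91, 181 and 95.9 CPM in CAG-GFP Pilo 1 to 4 (-4.02 ± 1.52, -2.43 ± 1.15 within 1 name form, and -4.65 ± 1.90 without DREADD Pilo 3).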
